A study of Homo sapiens with 2 samples.

Results

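Ribosome biogenesis was examined through 45 named genes, which comprised RNA polymerase I subunits and factors, the core proteins of small nucleolar ribonucleoproteins (snoRNPs), nucleolar chaperones, and assembly factors of the small and large ribosomal subunits. The genes were selected by name, and all 45 were found among the 50868 genes of the table. RNA was sequenced from Molm13, a line of human acute myeloid leukaemia (AML) cells with a KMT2A::MLLT3 fusion, grown in RPMI medium with fetal bovine serum. Cells with an empty lentiviral vector (Vector) gave 1 library, and cells with a lentiviral UNC5B construct, driven by a CMV promoter and selected with puromycin, gave the other (OE-UNC5B). Whether either library came from 1 clone is not given in the sources used here.

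RNA polymerase I transcribes the ribosomal DNA in the nucleolus into a long precursor rRNA. The precursor is modified by snoRNPs, of which the box C/D class methylates riboses and the box H/ACA class converts uridines to pseudouridine, and it is cut and folded by a large assembly called the small subunit processome and by separate large subunit factors. These genes are widely expressed, are raised by the transcription factor MYC in growing cells, and include NPM1, which is often mutated in AML.

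The Vector library held 13715566 counted reads and the other 15637137. UNC5B had 0 reads in both libraries, which allows up to 0.219 CPM (counted reads scaled to a common library total) in Vector and 0.192 CPM in OE-UNC5B, so the direction of every difference rests on the label and that library is named below by its label alone. Of 13 myeloid leukaemia markers, 11 had at least 10 reads over both libraries, and CD14 and KIT had at most 5 reads in each. These 11 had a median log2 fold change of 0.01, with 6 above 0 and 5 below. LYZ (51742 reads in Vector, 23700 in the other library, -1.36) and MPO (3363 and 1553 reads, -1.35) were lower, and SPI1 (-0.23) and CEBPA (-0.16) had intervals below 0. PTPRC (1592 and 3102 reads, 0.73), FLT3 (4067 and 6395 reads, 0.42) and CD33 (1775 and 2299 reads, 0.14) had intervals above 0. The summed level of the list was 5512 CPM in Vector against 3119 CPM in the library labelled OE-UNC5B, and without LYZ it was 1677 against 1628 CPM. None of 8 epithelial and HEK293T markers reached 10 reads, and of 8 endothelial markers PECAM1 alone did, while CDH5, KDR, TEK, TIE1 and ROBO4 were at 0. Whether these marker differences bear on the results below was not tested. In a bulk sample a different share of cells and a different amount of RNA per cell cannot be told apart for any gene.

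No difference has a replicate check, since each group was a single library, and no test of the conditions was made. Differences are log2 fold changes of TMM-scaled counts with 0.5 reads added, for the library labelled OE-UNC5B over Vector. Each has an exact 95% Clopper-Pearson interval of the reads, which covers counting error only and leaves out variation between cultures and any duplicated reads, since no molecular identifiers were counted. A minimum of 10 reads over the pair of libraries left 15384 genes to compare, and all 45 ribosome biogenesis genes were among them.

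The short sequences around the starts of these genes are shown first, since they hold a feature that the choice of genes did not use. CACGTG, the core motif bound by MYC with its partner MAX, reads the same on both strands. In the RefSeq promoters of GRCh38.p14, which run from 250 bases before to 50 bases after the start and of which the first start listed per gene was used, 37 of the 45 genes had an entry. CACGTG was found in 15 of these 37 promoters (40.5%), compared with 7.43% of 27305 promoters of all genes and 10.4% of 10009 promoters of genes with at least 10 reads. Among 112 other ribosome biogenesis genes with a promoter entry, the nearest set in function, it was found in 27 (24.1%). In all 15 genes a motif lay in the stretch from 20 bases before to 50 bases after the start. That stretch held it in 40.5% of the 37 promoters, 1.61% of all promoters and 12.5% of those of the other ribosome biogenesis genes. NOP10 had a second site outside the stretch, with its first base at -170 from the start. The limits of the stretch were chosen after the positions were seen, so that it holds a motif in all 15 was set by that choice. A set of 8 sites is printed, 4 from genes with lower counts in the library labelled OE-UNC5B (NOP10, MRTO4, PES1 and FBL) and then those of the 4 genes with the motif and a value above 0 (WDR43, NOP14, BYSL and NAT10), to show that the motif stands at the start of genes on either side. The interval of WDR43 (0.04, from -0.04 to 0.13) holds 0, and its value was -0.06 when a trend on transcript length and GC content was subtracted. The motif is in capitals.
NOP10, chr15:34343130-34343159, minus strand: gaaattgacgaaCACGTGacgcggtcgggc
MRTO4, chr1:19251807-19251836, plus strand: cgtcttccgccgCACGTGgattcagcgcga
PES1, chr22:30591880-30591909, minus strand: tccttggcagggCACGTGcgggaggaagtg
FBL, chr19:39846356-39846385, minus strand: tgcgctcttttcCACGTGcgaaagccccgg
WDR43, chr2:28894658-28894687, plus strand: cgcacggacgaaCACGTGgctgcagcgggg
NOP14, chr4:2963374-2963403, minus strand: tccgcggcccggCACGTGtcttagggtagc
BYSL, chr6:41921515-41921544, plus strand: ttcttcagtcccCACGTGcgatccttcccg
NAT10, chr11:34105602-34105631, plus strand: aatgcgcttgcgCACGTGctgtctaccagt
The 15 genes with the motif had a median log2 fold change of -0.22, with 11 below 0, and the 22 genes without it a median of -0.11, with 13 below 0. A match is a description of these letters and not of binding. MYC itself had 345 reads in Vector against 451 in the library labelled OE-UNC5B, a log2 fold change of 0.15 with an interval from -0.06 to 0.36, which holds 0.

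The ribosome biogenesis genes differed little between the libraries. None of the 45 was higher or lower by at least 1.5-fold, whereas 25.5% of all genes compared were past that fold in either direction, and 4.78% were lower and 5.15% higher by at least 2-fold. The least covered of the 45 genes, UTP15, had 1305 reads over both libraries, and among the 4941 genes with at least that many reads 14.1% were past 1.5-fold. The log2 fold changes ran from -0.54 for NOP10 to 0.22 for RRP12, with a median of -0.16, compared with -0.01 over all genes compared. Of the 45 genes, 30 were below 0 (50.5% of all genes compared were), and with library totals in place of TMM 27 were. At a smaller threshold, a log2 fold change of 0.32 in size, 11 of the 45 were lower and 0 were higher. Of all genes compared 25.2% were lower and 24.7% higher at that threshold, and of the 4941 well covered genes 19% and 20.1%. With a trend on transcript length and GC content subtracted, 6 of the 45 were lower at that threshold, 4 of them among the 11, and 0 were higher, beside 23.6% lower and 23.1% higher of all genes in that setting. The interval from the reads lay below 0 for 24 genes and above 0 for 11 genes, and it held 0 for 10. Over all genes compared it lay below 0 for 26.2% and above 0 for 25.2%, and over the 4941 well covered genes for 39.1% and 38.1%. Together the 45 genes took 1.01% of the counted reads in Vector against 0.95% in the library labelled OE-UNC5B.

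**Figure D1:**
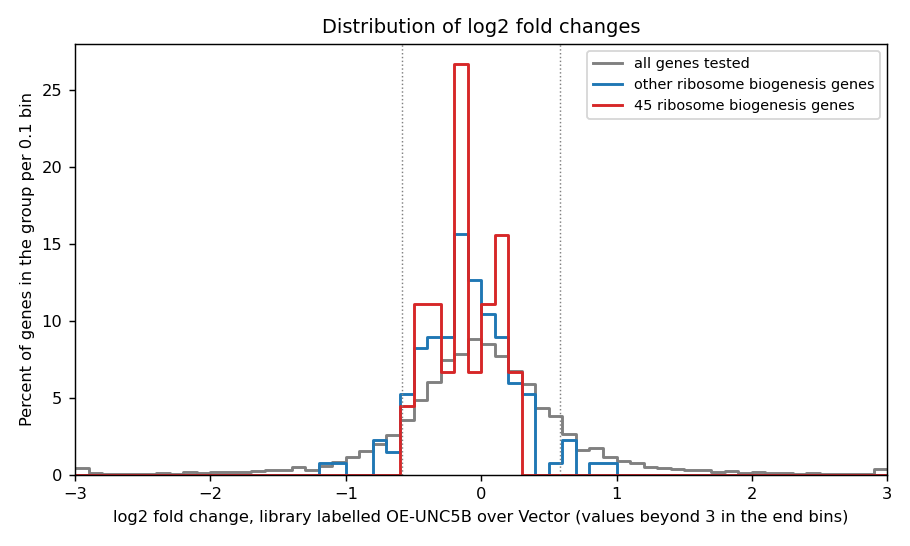
Percent of genes per bin of 0.1 in log2 fold change (x axis, library labelled OE-UNC5B over Vector) for all 15384 genes compared, the 45 ribosome biogenesis genes and 134 further genes of the pathway, with dotted lines at 1.5-fold. The 45 genes lie between -0.54 and 0.22, inside the dotted lines, while the distribution of all genes extends past them on both sides.

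Levels between genes were compared per kilobase of the main GENCODE 44 transcript. NPM1, a histone and ribosome chaperone, was the highest, at 1396 CPM per kb in Vector against 1217 in the library labelled OE-UNC5B. NCL (nucleolin), an RNA-binding protein of the nucleolus, followed at 429 and 374 CPM per kb. FBL, NHP2 and NOP56, all core snoRNP proteins, came next in Vector, at 338, 301 and 235 CPM per kb. The other snoRNP proteins lay lower, from 144 CPM per kb for NOP10 to 59.3 for DKC1, which was close to the processome proteins NOP14 (61.4) and UTP4 (60.2). At the lower end, UTP20 had 8.48 CPM per kb in Vector and UTP15 8.75, and the largest polymerase subunits POLR1A and POLR1B had 14.7 and 14.6.

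**Figure D2:**
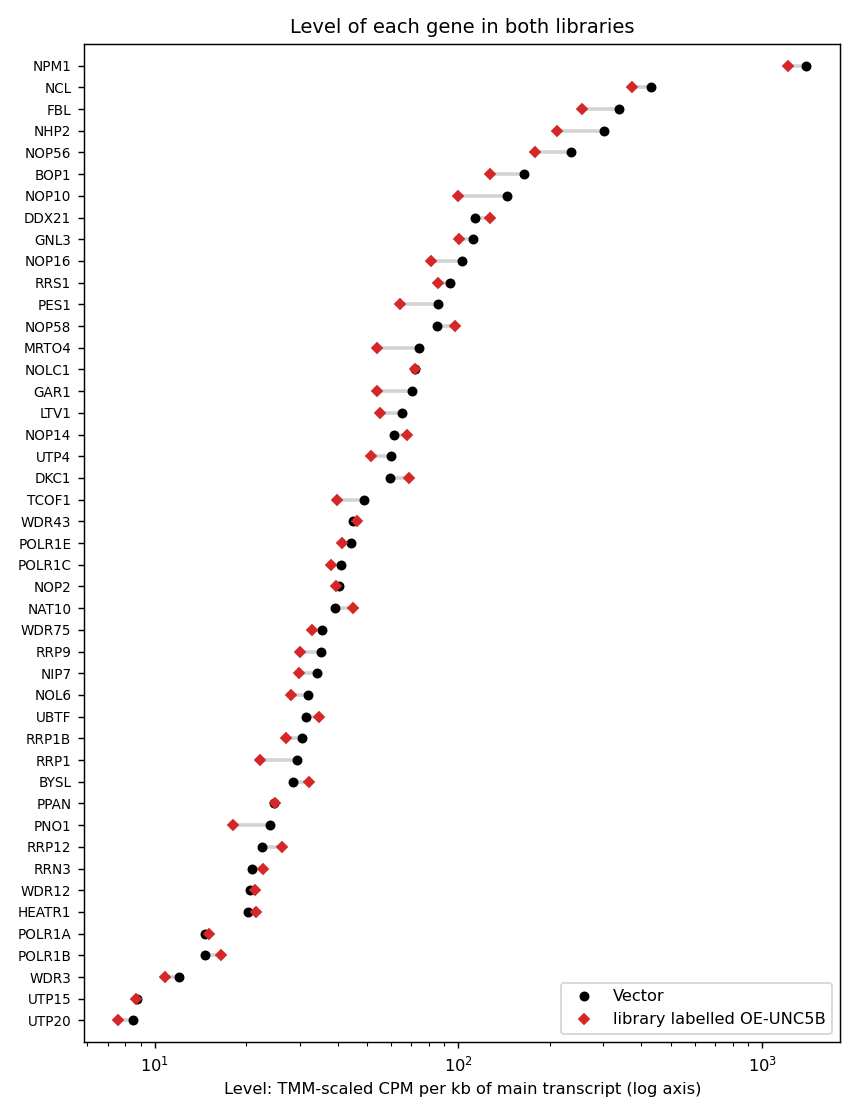
Level of each of the 45 genes in TMM-scaled CPM per kb of main transcript (log axis), with Vector as black circles and the library labelled OE-UNC5B as red diamonds, 1 library each. NPM1 is at the top (1396 and 1217) and UTP20 at the bottom in Vector (8.48), and the distance between the 2 symbols of a gene is small beside the range over genes.

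The 7 genes of RNA polymerase I and its factors had a median log2 fold change of 0.04, from -0.30 for TCOF1 to 0.18 for POLR1B, and with the trend on transcript length and GC content subtracted the median was -0.02. POLR1A, the largest catalytic subunit (chr2:86020216-86106155, minus strand), had 2469 reads in Vector against 2996 in the library labelled OE-UNC5B, a log2 fold change of 0.04 with an interval from -0.03 to 0.12. POLR1B, the other large subunit, had 1482 and 1981 reads, a log2 fold change of 0.18 (0.08 to 0.28). With the trend subtracted POLR1A was at -0.16 and POLR1B at -0.01. The subunits POLR1C, which RNA polymerase III shares, and POLR1E had 708 against 773 reads and 1112 against 1217 reads, log2 fold changes of -0.11 and -0.11 with intervals that hold 0. Among the factors, UBTF, which binds and opens the ribosomal DNA, had 2033 and 2659 reads, a log2 fold change of 0.15 (0.07 to 0.24). RRN3, which brings the polymerase to the promoter, had 1044 and 1342 reads, a log2 fold change of 0.13 (0.01 to 0.24). Its 4 listed pseudogenes held 676 and 825 reads, so its value is uncertain. With them added it was 0.10, and with the trend subtracted from RRN3 alone it was 0.03. TCOF1 (treacle), a nucleolar phosphoprotein that supports rDNA transcription and is mutated in Treacher Collins syndrome, stood apart on the lower side, with 3322 and 3173 reads and a log2 fold change of -0.30 (-0.37 to -0.23). Of these 7 genes, POLR1B, UBTF and RRN3 thus had an interval above 0, TCOF1 below 0, and the other 3 an interval that holds 0. Over the 4941 well covered genes 38.1% had an interval above 0 and 39.1% below 0.

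The snoRNP core proteins spanned most of the range, and each complex held both higher and lower members. In the box C/D complex, FBL (fibrillarin), the methyltransferase, had 5134 reads in Vector against 4573 in the library labelled OE-UNC5B, a log2 fold change of -0.40 (-0.46 to -0.35). NOP56, a scaffold protein of the complex, had 6056 and 5427 reads, a log2 fold change of -0.39 (-0.45 to -0.34). NOP58, the paralogous scaffold, had 2290 and 3099 reads, a log2 fold change of 0.20 (0.12 to 0.28). The interval of NOP58 lay above 0 and those of FBL and NOP56 below 0. In the box H/ACA complex, which also binds telomerase RNA, NOP10 (chr15:34341713-34343177, minus strand) had 988 and 802 reads, a log2 fold change of -0.54 (-0.67 to -0.40). NHP2 (chr5:178149460-178153967, minus strand) had 3167 and 2612 reads, a log2 fold change of -0.51 (-0.59 to -0.44). Both are small proteins that bind dyskerin or its guide RNA. GAR1, the remaining small partner, had 960 and 870 reads, a log2 fold change of -0.38 (-0.51 to -0.24). DKC1 (dyskerin), the pseudouridine synthase of the complex, had 1977 and 2701 reads, a log2 fold change of 0.21 (0.13 to 0.30). The enzyme was therefore higher and its 3 small partners lower, with intervals that do not overlap. With the length and GC trend subtracted, the values of NOP10, NHP2 and GAR1 were -0.44, -0.34 and -0.30, those of FBL and NOP56 were -0.24 and -0.32, and those of DKC1 and NOP58 were 0.21 and 0.17. NHP2 shares 28.0% of its exonic bases with RMND5B on the opposite strand (453 and 633 reads), and whether the counting used strand is not given in the sources used here.

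Among the nucleolar chaperones, NCL and NPM1 had nearly equal log2 fold changes. NCL had 22728 reads in Vector against 23339 in the library labelled OE-UNC5B, and NPM1 24858 and 25528 reads, in both genes a log2 fold change of -0.20 with an interval from -0.22 to -0.17. More reads in the deeper library thus corresponded to a lower scaled level. The 46 listed NPM1 pseudogenes held 7340 and 8204 reads, 6383 and 7112 of them in NPM1P27, so reads may be divided among near-identical copies. The sum of NPM1 and these copies had a log2 fold change of -0.17, and with the length and GC trend subtracted NCL was at -0.25 and NPM1 at -0.19. GNL3 (nucleostemin), a GTP-binding protein, had 2921 and 3080 reads and a log2 fold change of -0.16 (-0.23 to -0.09). NOLC1, a snoRNP chaperone, had 3627 and 4271 reads, which is a log2 fold change of 0.00 (-0.06 to 0.06). DDX21, an RNA helicase that associates with RNA polymerase I, was the only higher gene of these 5, with 7126 and 9389 reads and a log2 fold change of 0.16 (0.12 to 0.21). Its value was 0.02 with the length and GC trend subtracted.

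The 11 genes of the small subunit processome had a median log2 fold change of -0.11, with 5 intervals below 0 and 3 above 0. Over the 4941 well covered genes 39.1% of intervals lay below 0 and 38.1% above 0. In the UTP-A subcomplex, which binds the precursor rRNA first, UTP4 had an interval below 0, HEATR1 above 0 and the other 3 an interval that holds 0. UTP4 had 1777 reads in Vector against 1787 in the library labelled OE-UNC5B (log2 fold change -0.23), and HEATR1 2309 and 2894 reads (0.09). UTP15, WDR43 and WDR75 had values of -0.01, 0.04 and -0.11, with intervals that hold 0. RRP9, which binds the U3 snoRNA, had 734 and 740 reads (-0.22), NOL6 2085 and 2159 reads (-0.19), UTP20 1034 and 1090 reads (-0.16) and WDR3 1622 and 1715 reads (-0.16). These 4 had intervals below 0, and with the length and GC trend subtracted RRP9 was at -0.06, NOL6 at -0.17, UTP20 at -0.39 and WDR3 at -0.43. NOP14 and NAT10, an RNA cytidine acetyltransferase, were on the other side, with 2947 and 3838 reads (0.14) and 2109 and 2847 reads (0.20). HEATR1 shares 23.1% of its exonic bases with LGALS8 on the opposite strand (735 and 1081 reads), and its value was -0.14 with the length and GC trend subtracted. UTP4, UTP15 and WDR75 were then at -0.21, -0.18 and -0.19, so that UTP4 did not stand apart from them.

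The 4 late factors of the small subunit fell into opposite pairs. PNO1, an assembly factor that binds the end of the small subunit rRNA, had 727 and 643 reads, a log2 fold change of -0.41 (-0.57 to -0.26), and LTV1, an export and maturation factor, 1634 and 1628 reads, a log2 fold change of -0.24 (-0.34 to -0.14). BYSL (bystin) had 664 and 881 reads, a log2 fold change of 0.17 (0.02 to 0.32), and RRP12 1335 and 1834 reads, a log2 fold change of 0.22 (0.12 to 0.32). RRP12 had the highest log2 fold change of the 45 genes, and with the trend subtracted BYSL (0.30) was above RRP12 (0.26).

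Of the 11 large subunit factors, 9 were below 0, 8 of them with an interval below 0, and none had an interval above 0. Their median was -0.19. For scale, 50.5% of all genes compared were below 0. Among the 4941 well covered genes, 39.1% of intervals lay below 0 and 38.1% above 0. MRTO4, which holds the place of the ribosomal stalk during assembly, had 2050 reads in Vector against 1757 in the library labelled OE-UNC5B, a log2 fold change of -0.46 (-0.55 to -0.37). In the PeBoW complex, which acts on the large subunit precursor, PES1 had 2622 and 2309 reads and BOP1 5398 and 4894 reads, log2 fold changes of -0.42 (-0.50 to -0.34) and -0.38 (-0.43 to -0.32). WDR12, the third protein of that complex, had 2239 and 2754 reads, a log2 fold change of 0.06 (-0.02 to 0.14). This contrast depended on the setting, since with the length and GC trend subtracted WDR12 was at -0.17, BOP1 at -0.21 and PES1 at -0.31. RRP1 had 1174 and 1041 reads (-0.41), while its paralog RRP1B had 2090 and 2186 reads (-0.17), and with the trend subtracted they were at -0.31 and -0.22. NOP16, NIP7 and RRS1 had log2 fold changes of -0.34, -0.19 and -0.12, with intervals below 0, and with the trend subtracted NOP16 was at -0.20, NIP7 at -0.23 and RRS1 at 0.00. NOP2, an rRNA cytosine methyltransferase, was at -0.03 and PPAN at 0.02, both with intervals that hold 0. PPAN shares 47.6% of its exonic bases with the readthrough gene PPAN-P2RY11 (558 and 745 reads) on the same strand, so its value is uncertain, and the sum of both was at 0.09 (-0.02 to 0.19).

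**Figure D3:**
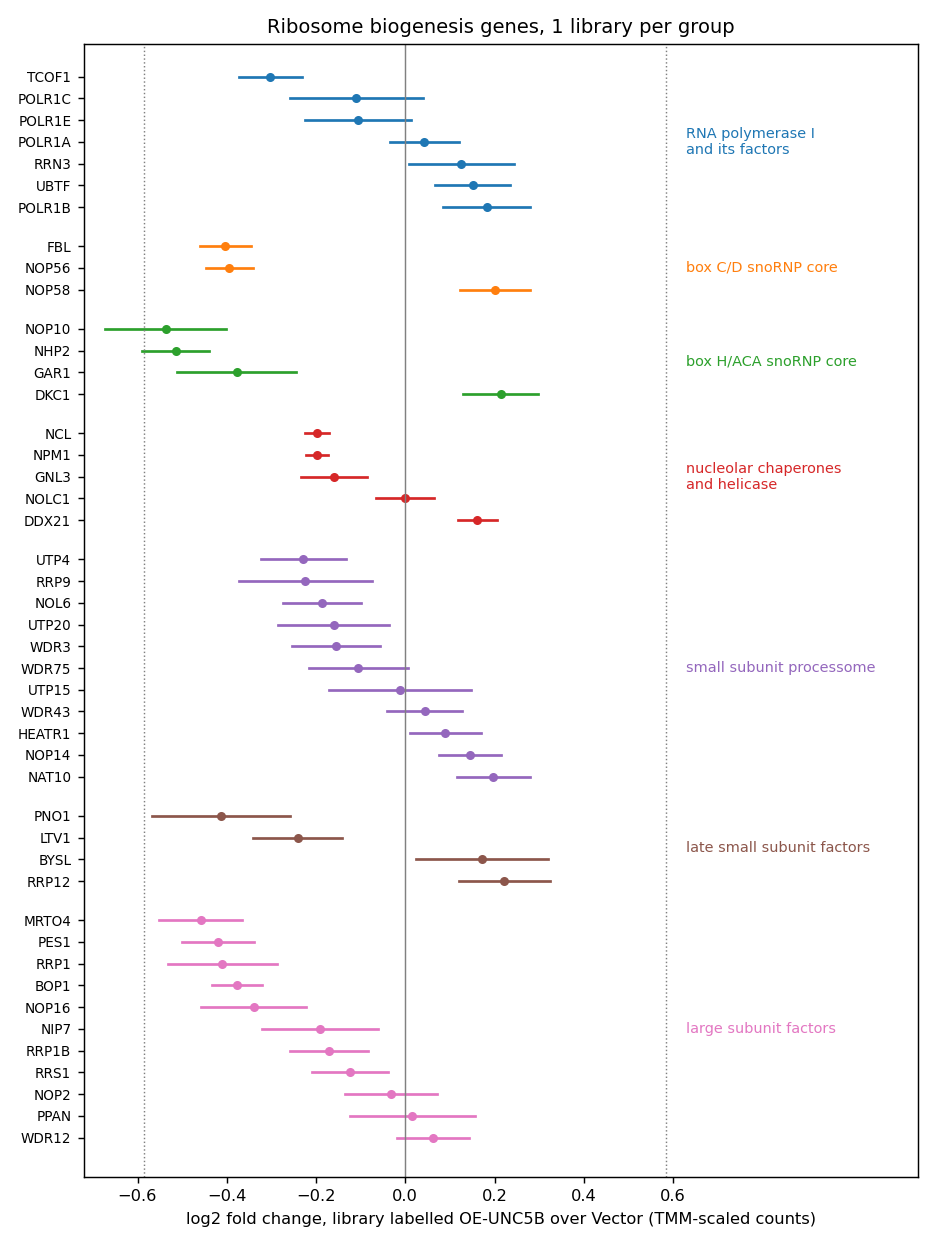
Log2 fold change of each of the 45 genes (x axis, library labelled OE-UNC5B over Vector, TMM-scaled counts), grouped by role. Points are the values and bars the 95% intervals from the reads, which cover counting error only; dotted lines mark 1.5-fold. NOP58 (0.20) and DKC1 (0.21) lie right of 0 while the other snoRNP core proteins lie between -0.54 and -0.38.

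Transcript length varied with these differences. The 22 genes with a main transcript under the median of 2469 nt (from 507 to 2428 nt) had a median log2 fold change of -0.23, with 19 below 0, and over all genes of such length the median was -0.12, with 59.6% below 0. The 23 genes at or above that length (up to 12480 nt) had a median of 0.04, with 11 below 0, near the median of 0.07 and the 43.2% below 0 over all genes of such length. Across the 45 genes Pearson's r between log2 length and log2 fold change was 0.54 and Spearman's rho 0.49, while GC content gave an r of -0.27. These are descriptions across genes of the same pair of libraries. Longer genes also had higher values over the 15198 genes that had a length and GC content, with an r of 0.13 and a rho of 0.20. With the trend over all genes subtracted, the medians of the short and long groups were -0.21 and -0.14, and 34 of the 45 genes were below 0 beside 51.7% of all genes, so the long genes had lower values than before and the median of all 45 was -0.18. This subtraction moved 19 of the 45 genes past their interval and changed the sign of 6. The part of length in the differences was not tested further.

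**Figure D4:**
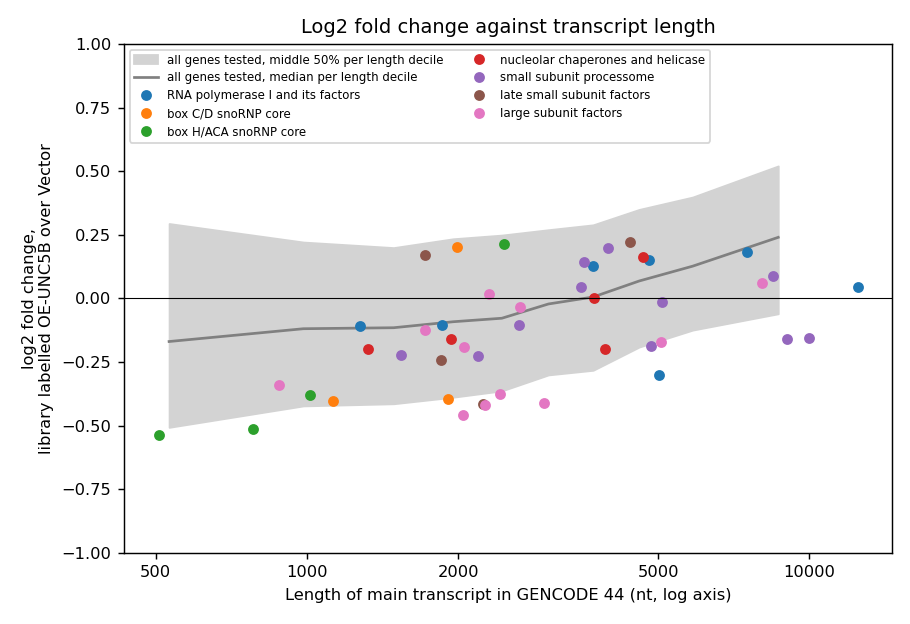
Log2 fold change of the 45 genes (points, coloured by role) against the length of the main transcript in nt (log axis), with the median (line) and the middle 50% (band) of all genes compared per decile of length. The line rises from -0.17 in the shortest decile to 0.24 in the longest, and the shortest of the 45 genes, NOP10 (507 nt), is the lowest point at -0.54.

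Introns of some of these genes hold snoRNAs. In GENCODE 44, 25 snoRNA genes lay inside 7 of the 45 genes on the same strand: NOP56, NOP58, DKC1, NCL, GNL3, WDR43 and PPAN. These 7 genes had a median log2 fold change of 0.02 (from -0.39 to 0.21), and the other 38 a median of -0.16. The median of the 7 is the value of PPAN, which is uncertain because of its readthrough gene. With the length and GC trend subtracted, NOP56, NCL, GNL3 and WDR43 (-0.06) were below 0 and NOP58, DKC1 and PPAN above 0. The snoRNAs themselves were not analysed here. Of the 45 genes, 8 lay on chromosome 2 and 5 on chromosome 5.

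A further 134 genes of the pathway were examined, all of which had at least 10 reads. Their median log2 fold change was -0.11, with 87 below 0 beside 50.5% of all genes compared. Of the 134, 7 were lower and 6 higher by at least 1.5-fold, beside 12.5% lower and 13% higher of all genes compared. Of the 14 remaining polymerase I subunits and factors, 8 had an interval below 0 and 1 above 0, beside 26.2% and 25.2% of all genes compared. Over the 4941 well covered genes these shares were 39.1% and 38.1%. The 14 included 3 of the 7 lower genes and none of the higher ones. The 3 lower genes were POLR2L (697 and 393 reads, log2 fold change -1.06), POLR2F (722 and 508 reads, -0.74) and CD3EAP (642 and 465 reads, -0.70). POLR2L and POLR2F are small subunits shared with other RNA polymerases, and CD3EAP is a subunit also named POLR1G. These 3 were named because they were past 1.5-fold, so that they lay below POLR1A and POLR1B was fixed by that choice. POLR1D, the 1 gene of the 14 with an interval above 0, had 2536 and 3378 reads, a log2 fold change of 0.18 (0.10 to 0.25). The values of these 14 genes are given without the length and GC trend subtracted. SNU13, the box C/D core protein that first binds the snoRNA, had 883 and 1672 reads, a log2 fold change of 0.68 (0.57 to 0.80), so that in this complex NOP58 and SNU13 were higher and FBL and NOP56 lower. SHQ1, an assembly chaperone of the box H/ACA complex, had 894 and 690 reads (-0.61). RRP7A (-0.64), WDR18 (-0.74) and NOL12 (-1.16) were the other lower genes. Higher were RSL24D1, a large subunit export factor (2744 and 5768 reads, 0.84), ERI1, an exonuclease (504 and 1144 reads, 0.95), RIOK3 (0.64), MDN1, a very large ATPase of large subunit assembly (0.61), and SBDS, which acts in late maturation (0.60). By group the medians were -0.21 for polymerase I subunits and factors, -0.20 for snoRNP assembly, -0.18 for small subunit factors, -0.08 for large subunit factors and -0.05 for the nuclear exosome.

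The products that these genes assemble and the polymerase most like RNA polymerase I were set beside them. The 78 cytosolic ribosomal protein genes had a median log2 fold change of -0.23, with 68 below 0 beside 50.5% of all genes compared. These values are without the length and GC trend subtracted, and 59.6% of all genes with a main transcript under 2469 nt were below 0. The part of length in this list was not tested. Of the 78, 4 were lower and 0 higher by at least 1.5-fold, beside 12.5% and 13% of all genes compared and 6.4% and 7.67% of the 4941 well covered genes. The 22 genes of the RNA polymerase III machinery had a median of 0.03, with 8 below 0 beside 50.5% of all genes compared. POLR3K was the 1 gene past 1.5-fold (650 and 501 reads, -0.61), beside 25.5% of all genes compared. The values stand side by side without a test, since no replicate was available for any of them. Of 11 genes of the MYC network, 10 had at least 10 reads, with a median log2 fold change of 0.16 and 8 above 0. By at least 1.5-fold 3 were higher and 2 lower, beside 13% and 12.5% of all genes compared. MXI1, a MAX partner that opposes MYC, had 375 and 1090 reads (interval of the log2 fold change 1.13 to 1.48), MLX 618 and 1193 reads (0.71) and MGA 794 and 1417 reads (0.60). MYCL and MXD3 were at -0.84 and -0.85. MNT (0.18) had an interval above 0, and MYC, MAX, MXD1 and MXD4 had intervals that hold 0.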

How the data were processed

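RNA-seq of Molm13 cells was available as 1 Vector library and 1 library labelled OE-UNC5B. For each gene the authors deposited a read count that was not normalized and an FPKM value scaled to gene length and counted reads. The submitters' processing notes name bcl2fastq 2.19, HISAT2 2.0.4, StringTie 1.3.0 and GRCh38; the counting tool, annotation release and strand setting are not given in the sources used here, and each could shift reads between overlapping genes. TMM factors came from edgeR 4.0.16 in R 4.3.3 over genes with at least 10 reads, 0.5 reads were added, and intervals were computed with scipy 1.17.1. The procedure was tested on simulated Poisson counts with known folds, for the recovery of the folds and the coverage of the intervals. That simulation held no variation between cultures and no length or GC trend, so it bears on counting error alone. No test of the conditions could be made with 1 library per group. Other settings were DESeq2 1.42.0 size factors, library totals, centring, FPKM with 0.1 or 1 added, 2 reads added, other filters and folds, and a trend on length and GC content. The 45 genes and the lists were chosen with earlier results of these data known. All 45 genes, the other pathway, network and comparison genes past 1.5-fold with at least 50 reads, MYC, UNC5B and defining cell markers were named, except ribosomal protein genes, which are given as counts because 1 item is not reported here. Lengths came from GENCODE 44 and promoters from RefSeq.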

Additional observations from a re-analysis of the deposited data

How the results depend on the processing

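No gene of the 45 was past 1.5-fold in either direction under any scaling, filter or added count that was tried, with FPKM values, with the length and GC trend subtracted, or without the 13 genes that share exonic bases with another gene that has reads, a setting chosen after seeing the data. At a log2 fold change of 0.32 in size, 11 of them were lower, and of the 134 other pathway genes 34 were lower and 8 higher, beside 25.2% and 24.7% of all genes compared. With the length and GC trend also subtracted, a setting chosen after seeing the data, 6 of the 45 were lower, and 35 of the other pathway genes were lower and 6 higher, beside 23.6% and 23.1% of all genes. The median of the 45 genes ranged from -0.18 with the trend subtracted to -0.10 with FPKM and 1 added. Of the 45 genes, 37 kept the sign of their value under every setting, 27 lower and 10 higher. HEATR1, NOLC1, NOP2, POLR1A, POLR1B, UTP15, WDR12 and WDR43 changed sign under at least 1. Of the 134 other pathway genes, 3 were lower and 4 higher with FPKM and 1 added, where the added value shrinks low genes. With the trend subtracted 8 were lower and 4 higher. With the whole interval required past 1.5-fold, 3 were lower and 2 higher, and at a fold of 2, 2 were lower and 0 higher. No paired analysis was possible because each group held a single library, and no replicate could be left out. Depth was not limiting for these genes, which had at least 1305 reads over both libraries, but the variation between cultures is unknown.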

Other observations

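The gene length behind the deposited FPKM can be recovered from the counts, and for most of these genes it was longer than the main transcript. For the 45 ribosome biogenesis genes the count divided by FPKM and by the library's counted reads gave a length with a median of 2.24 times the main GENCODE 44 transcript, from 0.99 to 8.18 times. For NOP56, NIP7, NOP16 and NOP2 this length (14289, 7707, 7209 and 14017 nt) exceeded the whole span of the gene in the table (6249, 3682, 5038 and 11829 nt). The 3 members with a single transcript in GENCODE 44, RRP9, LTV1 and RRS1, had ratios between 0.99 and 1.02. Among 1183 genes of the whole table with a single transcript and at least 50 reads in Vector, the median ratio was 1, and among all 11028 such covered genes it was 2.35. The order of levels across the 45 genes therefore differs between FPKM and CPM per kb (Spearman's rho 0.82 in Vector), and NOP16 was at 12.3 FPKM but 103 CPM per kb. Differences between the libraries for a given gene are not touched by this length, which is the same in both.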
